A study of Bos taurus with 15 samples.

Results

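Cytokines, chemokines and their receptors were examined in the endometrium of cows in early pregnancy, as a family that leaves out 6 chemokines (CCL2, CCL8, CCL11, CCL14, CCL16 and CXCL10). The members were all probes of the array whose description held the word interleukin, chemokine or tumor necrosis factor. Of 15208 probes other than controls, 103 held such a word, 4 of them for chemokines of the excluded group, and the remaining 99 probes stood for 98 gene names. The receptor subunit IL13RA1 had 2 probes. The words also took in genes that only act near these families, such as STAT6, CASP1 and the chemokine-like CMTM proteins, and 11 probes of this kind are given as other members.

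The tissue was caruncular endometrium, the raised parts of the uterine lining to which the placenta later attaches, from Japanese Black cows on days 15 and 18, counted from artificial insemination as day 1. The groups were day 15 of the estrous cycle without pregnancy (NP15, 4 cows), day 15 of pregnancy (P15, 3 cows), day 18 of the cycle without pregnancy (NP18, 4 cows) and day 18 of pregnancy (P18, 4 cows), with 1 array per cow and no treatment. All cows had been inseminated according to the study's methods, and a cow was counted as pregnant where trophoblast, the outer layer of the conceptus, was seen in the opened uterine horn. The P15 group has 3 arrays here, and so few arrays limit how precise any value can be. The question of the study was which transcripts differ between pregnant and cyclic endometrium at the time when the mother recognizes the conceptus, and the days were also compared within each state.

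Cytokines are secreted proteins by which cells of the immune system and of tissues signal to one another. Interleukins and chemokines are cytokines named for signaling among leukocytes and for directing their migration, and the TNF superfamily holds membrane-bound or released ligands that control survival, activation and death of cells. In ruminants the elongating conceptus secretes interferon-tau, which acts on the endometrium and keeps the corpus luteum functional, and leukocytes, epithelium and stroma of the endometrium all make and receive cytokines.

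A signal is given here in array medians, the background-corrected brightness of a probe divided by the median brightness of its array, so 1 is the level of the middle probe. Differences between groups are log2 fold changes from limma fitted over all 15 arrays, with their standard error (SE) and a p-value adjusted by the Benjamini-Hochberg method over all 13164 tested probes. A probe was called where that p was below 0.05 and the groups differed more than 2-fold. The exact two-sided permutation test used beside limma could not go below 0.0286 for 4 arrays against 4 or against 3. In endometrium analyzed as whole tissue, fewer cells of a type and less RNA per cell cannot be told apart.

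Since several members were known only from expressed sequence tags, the probes behind the calls for pregnancy are shown, with CCR8, whose levels followed a like order of groups. Each probe has 60 bases. It is printed 5′ to 3′ from the array's annotation, whole for TNFRSF-like (BE668836) and CCR8 and as its first 30 bases for the other genes, with no part in capitals. The sequences were not placed on a genome here.
TNFSF13B: ggcaatcattctctcgtgtgtctacacttc
CXCR4: ttttttcttgtgtttgtttagtttttgtga
C1QTNF5-like (BE722922): tgactggcacaactcccctgtcttcgcttg
TNFRSF-like (BE668836): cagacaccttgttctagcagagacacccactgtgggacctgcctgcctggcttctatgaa
CCR8: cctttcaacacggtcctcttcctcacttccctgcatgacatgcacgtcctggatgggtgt
TNFRSF-like (BE668836) and C1QTNF5-like (BE722922) are tags that the annotation describes only as similar to a TNF receptor and to a C1q and TNF related protein, so their genes are not settled. The GC content of the CXCR4 probe was 20% and that of the TNFSF13B probe 36.7%, against a median of 43.3% both over the 99 members and over all probes. The letters ATTTA, a motif known from unstable cytokine transcripts, were searched on the printed strand only and stood in 8 of the 99 member probes (8.08%) and in 8.23% of all probes.

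The median brightness of an array was 315 to 409 in NP15, 545 to 686 in P15, 790 to 838 in NP18 and 407 to 563 in P18. The lowest signal well above background was 0.0304 to 0.0475 array medians in NP15 and 0.0196 to 0.0519 in P15, but 0.066 to 0.095 in NP18 and 0.102 to 0.18 in P18, so that dim members lay closer to background on day 18. The 9 slides held arrays of 1 group each, and the arrays of P15, NP18 and P18 were scanned on 1 day for each group, while those of NP15 were scanned on 3 days. The scan day and the group can therefore not be told apart for most comparisons.

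Of the 99 members, 48 were well above background in all 15 arrays and 7 in none. The test took in the 81 members read well above background by 3 or more arrays (81.8% of the members, against 86.6% of all probes). The 18 members below this filter were the interleukins IL2, IL3, IL5, IL7, IL13, IL17A and IL21, the receptor chain IL18RAP, the ligands TNF and CD40LG, the chemokines CCL20 and CCL21, and the chemokine receptors CCR1, CCR3, CCR4, CCR7, CCR9 and CXCR1. Many of these are products of activated T cells or receptors on them. TNF, the founding ligand of its superfamily, was well above background in 1 array of NP15 alone. CCR1, a receptor for several CC chemokines, was above background in 1 array of NP18, and CCR3, the eotaxin receptor, in none. From 66 to 79 members per array were well above background in NP15, 69 to 84 in P15, 66 to 71 in NP18 and 58 to 72 in P18.

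On day 18, 3 of the 81 tested members differed between P18 and NP18. TNFSF13B (BAFF, a survival factor of B cells) and CXCR4 (the receptor of CXCL12, found on leukocytes and many tissue cells) rose in pregnancy, and the C1QTNF5-like tag fell. The 3 calls are 3.70% of the tested members, against 5.75% of all tested probes. Of these probes 3.65% were called higher and 2.10% lower. At an unadjusted p below 0.05 there were 17 members (21.0%, against 24.1% of all tested probes). The groups did not overlap for 15 members (18.5%, against 16.3% of all tested probes), and 13 of them were higher in P18 (16.0%, against 10.5%). These 13 include IRAK2 and CXCR5, which were not well above background in any array of day 18, so their separation is not a measured rise. The median change was 0.24 over the tested members and 0.07 over all tested probes, and without the filter on dim probes it was 0.28 over the 99 members and 0.15 over all probes.

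TNFSF13B had the largest change among the members. Its signal was 1.26, 1.58, 2.26 and 0.554 array medians in the 4 arrays of P18. In NP18 it was 0.111, 0.219, 0.11 and 0.0942. In P15 it was 0.167, 0.151 and 0.0734, and in NP15 it was 0.134, 0.104, 0.132 and 0.0325, the last of which was not well above background. The lowest array of P18 was above the highest array of every other group. The log2 fold change between P18 and NP18 was 3.32 (SE 0.50, limma adjusted p = 0.00143, exact permutation p = 0.0286). The related ligand TNFSF13 (APRIL) was not called, with 0.189 ± 0.0499 (SD, n = 4) in P18 and 0.316 ± 0.0368 (n = 4) in NP18 and a log2 fold change of -0.77 (SE 0.29, limma adjusted p = 0.12).

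CXCR4 gave 4.41, 6.23, 7.3 and 5.47 array medians in P18. In NP18 it gave 3.61, 1.84, 1.83 and 0.725. Its signal was 2.66, 3.88 and 4.17 in P15 and 3.26, 2.61, 2.42 and 3.03 in NP15. All 4 arrays of P18 were above all other arrays, and replicate 4 of NP18 was the lowest of the 15. The log2 fold change on day 18 was 1.74 (SE 0.37, limma adjusted p = 0.0122, exact permutation p = 0.0286). In limma on the 8 arrays of day 18 alone CXCR4 was not called, while both other members kept their calls. With the methods' t-test after Benjamini-Hochberg adjustment neither CXCR4 nor the C1QTNF5-like tag was called, and TNFSF13B was.

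The C1QTNF5-like tag, of a family of secreted proteins with a C1q-like domain, went the other way. It gave 2.33, 1.17, 0.756 and 1.65 array medians in P18. In NP18 it gave 2.9, 4.09, 6.02 and 8.05, so that the highest array of P18 was below the lowest of NP18. On day 15 it was 2.76, 3.9 and 2.71 in P15 and 2.71, 2.99, 3.08 and 3.15 in NP15. The log2 fold change on day 18 was -1.85 (SE 0.35, limma adjusted p = 0.00612, exact permutation p = 0.0286). Its relatives C1QTNF9 and C1QTNF7 had log2 fold changes of -0.50 (SE 0.36) and 0.37 (SE 0.27), and limma called neither.

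All 3 calls of day 18 were kept when any 1 of the 15 arrays was left out. The number of called members was then 3 to 7, with 5 without NP15 replicate 3 and 7 without NP18 replicate 2. When scan day entered limma as a random block, no member was called, and the adjusted p was 0.162 for TNFSF13B, 0.407 for the C1QTNF5-like tag and 0.537 for CXCR4.

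Markers of cell types were also read on day 18. Of 20 tested probes of leukocyte genes none was called. Among them 18 had a change above 0, against 7334 of all 13164 tested probes, and the median was 0.55, against 0.07. These 18 include gzmA (1.64), NKG7 (1.42) and MS4A1 (0.88), which were not well above background in any array of day 18. Their changes are not measured rises, so the count and the median partly rest on dim probes. PTPRC (-0.20) and CD8A (-0.21) were below 0, and ITGAM was not above background in any array. The summed signal of the leukocyte list was 33.9, 34.2, 51.2 and 26.4 in NP18 and 35, 42.5, 275 and 63.7 in P18. This sum rests largely on 1 gene, GZMB, whose 2 probes had means of 12.9 and 10.6 in NP18 and 42.7 and 38.7 in P18. Neither GZMB probe was called (limma adjusted p = 0.4 and 0.369). The array with 275, P18 replicate 3, also had the highest TNFSF13B and CXCR4 and the lowest C1QTNF5-like signal of all arrays, and the part of leukocytes in these changes was not tested. Of 11 tested trophoblast probes, 7 were called higher and 1 lower in P18, against 3.65% and 2.10% of all tested probes. The lower 1 was ELF5, which was also well above background in all arrays of NP15 and NP18. The summed signal of the trophoblast list was 1.34 to 2.73 in NP18 and 1.36, 157, 98.5 and 720 in P18. In P18 replicate 1 the trophoblast sum of 1.36 lay within the range of NP18, where ELF5 (mean 0.682) and TFAP2C (0.968) made up much of it. TKDP4 was well above background in all 4 arrays of P18 and in none of NP18, so this sum does not show that trophoblast RNA was absent. In that array TNFSF13B gave 1.26, CXCR4 4.41 and the C1QTNF5-like tag 2.33, each beyond every array of NP18. Of the tested probes for smooth muscle 2 of 5, for endothelium 3 of 10 and for endometrial epithelium and stroma 3 of 17 were called lower in P18. None was called higher, and the share called lower over all tested probes was 2.10%. The endometrial calls were 2 probes of the hormone receptor ESR1 and 1 of COL1A1. Of the 18 endometrial probes, all arrays of a group read 14 or 15 well above background, and their summed signal was 932 to 1737 over the 15 arrays. The part of these cell types was not tested.

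Among the receptors of the TNF superfamily, which carry signals for activation, survival or death, none of the 8 tested members was called between P18 and NP18. TNFRSF1A, the broadly expressed TNF receptor, gave 22.6 ± 1.68 array medians in P18 and 19.1 ± 5.14 in NP18 (SD, n = 4 each), with a log2 fold change of 0.28 (SE 0.21). TNFRSF1B, the receptor more restricted to leukocytes, gave 0.303 ± 0.0599 and 0.314 ± 0.0543, with a change of -0.06 (SE 0.29). TNFRSF9 (4-1BB, a costimulatory receptor of T cells) had the largest change of the group, 1.44 (SE 0.48, limma adjusted p = 0.089), and was well above background in 3 arrays of P18 and 1 of NP18. The TNF-induced protein TNFAIP6, which is secreted and binds hyaluronan, changed by 0.64 (SE 0.37, limma adjusted p = 0.309).

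No chemokine ligand among the 12 tested was called on day 18, and 10 had a change above 0, against 7334 of all 13164 tested probes. CCL5, which draws T cells and other leukocytes, gave 13.5, 11.8, 15.9 and 9.48 array medians in P18 and 2.39, 5.95, 4.25 and 7.99 in NP18. The groups did not overlap, and CCL5 changed by 1.41 (SE 0.43, limma adjusted p = 0.0626). XCL1 (lymphotactin, made by T and natural killer cells) gave 0.334, 0.407, 0.35 and 0.28 in P18 and 0.161, 0.21, 0.19 and 0.188 in NP18. Its change of 0.87 (SE 0.24) had an adjusted p of 0.0407 in limma but stayed under a fold of 2, so it was not called. CXCL8, a neutrophil attractant, was among the 5 lowest changes of the members at -0.57 (SE 1.03), and was at 0.13 without NP18 replicate 4. Its signal ran from 0.0511 to 0.849 in NP18 and from 0.0938 to 0.199 in P18, with 3 of 4 arrays well above background in each group.

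Of the 9 tested chemokine receptors CXCR4 alone was called on day 18. CXCR3, the receptor of CXCL9 to CXCL11 on activated T cells, was not well above background in any of the 8 arrays of day 18, and neither was CXCR5, a receptor of B and follicular T cells, so that no fold is given for them. CCRL2, an atypical chemokine receptor, was well above background in all arrays and changed by 0.84 (SE 0.42, limma adjusted p = 0.238). CCR8, a receptor of regulatory and other T cells, gave 0.275 ± 0.0105 in P18 and 0.254 ± 0.0619 in NP18 (SD, n = 4 each) and changed by 0.14 (SE 0.21).

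The 6 tested members of the interleukin-1 family all had changes above 0 on day 18, as had 7334 of all 13164 tested probes. Their median was 0.79, against 0.07 over all tested probes, and limma called none. IL1RN, the secreted antagonist of the interleukin-1 receptor, gave 8.65, 7.73, 11.2 and 7.47 array medians in P18 and 1.06, 6.07, 4 and 4.35 in NP18. Its groups did not overlap (log2 fold change 1.41, SE 0.44, limma adjusted p = 0.0649). IL1A, an agonist of the same receptor, changed by 1.79 (SE 0.85, limma adjusted p = 0.215), and its single arrays ran from 0.0763 to 1.3 in NP18 and from 0.775 to 1.32 in P18. IL1B, the other agonist, gave 0.235, 0.253, 0.13 and 0.147 in P18 and 0.116, 0.158, 0.104 and 0.123 in NP18, which overlapped (0.57, SE 0.35). IL1RAP, the shared signaling chain of the receptor, gave 7.23 ± 1.3 in P18 and 3.99 ± 1.47 in NP18 (SD, n = 4 each), with no overlap of the groups and a change of 0.94 (SE 0.32, limma adjusted p = 0.0899).

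IL15, which supports natural killer and memory T cells, gave 0.198, 0.29, 0.366 and 0.243 array medians in P18. In NP18 it gave 0.0448, 0.186, 0.142 and 0.0523, of which 2 arrays were well above background. The groups did not overlap, but the change of 1.59 (SE 0.49) had an adjusted p of 0.0649 in limma. IL17RE, a receptor chain for IL-17C in epithelium, changed by 1.60 (SE 0.47, limma adjusted p = 0.0537), with 0.585 ± 0.397 in P18 and 0.188 ± 0.099 in NP18 (SD, n = 4 each). Probe A_73_100295 of IL13RA1 changed by 1.17 (SE 0.48, limma adjusted p = 0.155), and its other probe (ABR1853) by 0.21 (SE 0.28). IL13RA1 is a chain of the receptors for IL-4 and IL-13.

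IL10RB, the shared chain of receptors for IL-10, IL-22 and type III interferons, gave 2.35 ± 0.669 in P18 and 3.83 ± 0.368 in NP18 (SD, n = 4 each), and its groups did not overlap (log2 fold change -0.74, SE 0.25, limma adjusted p = 0.0876). IL10 itself, an anti-inflammatory cytokine, gave 0.34 ± 0.0091 and 0.351 ± 0.0482, with a change of -0.03 (SE 0.18). IL6, an inflammatory cytokine that signals through gp130, changed by -0.38 (SE 0.45), and the tag similar to IL6ST, which encodes gp130, by 0.25 (SE 0.25). LIF, a cytokine of the same family needed for implantation in mice, is described without the words of the selection and was not above background in any array. Its receptor chain LIFR, also outside the selection, passed the call (1.37, limma adjusted p = 0.0407), with 39.5, 44.6, 76.4 and 30.3 in P18 and 27.5, 18.3, 19.1 and 9.55 in NP18.

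**Figure D1:**
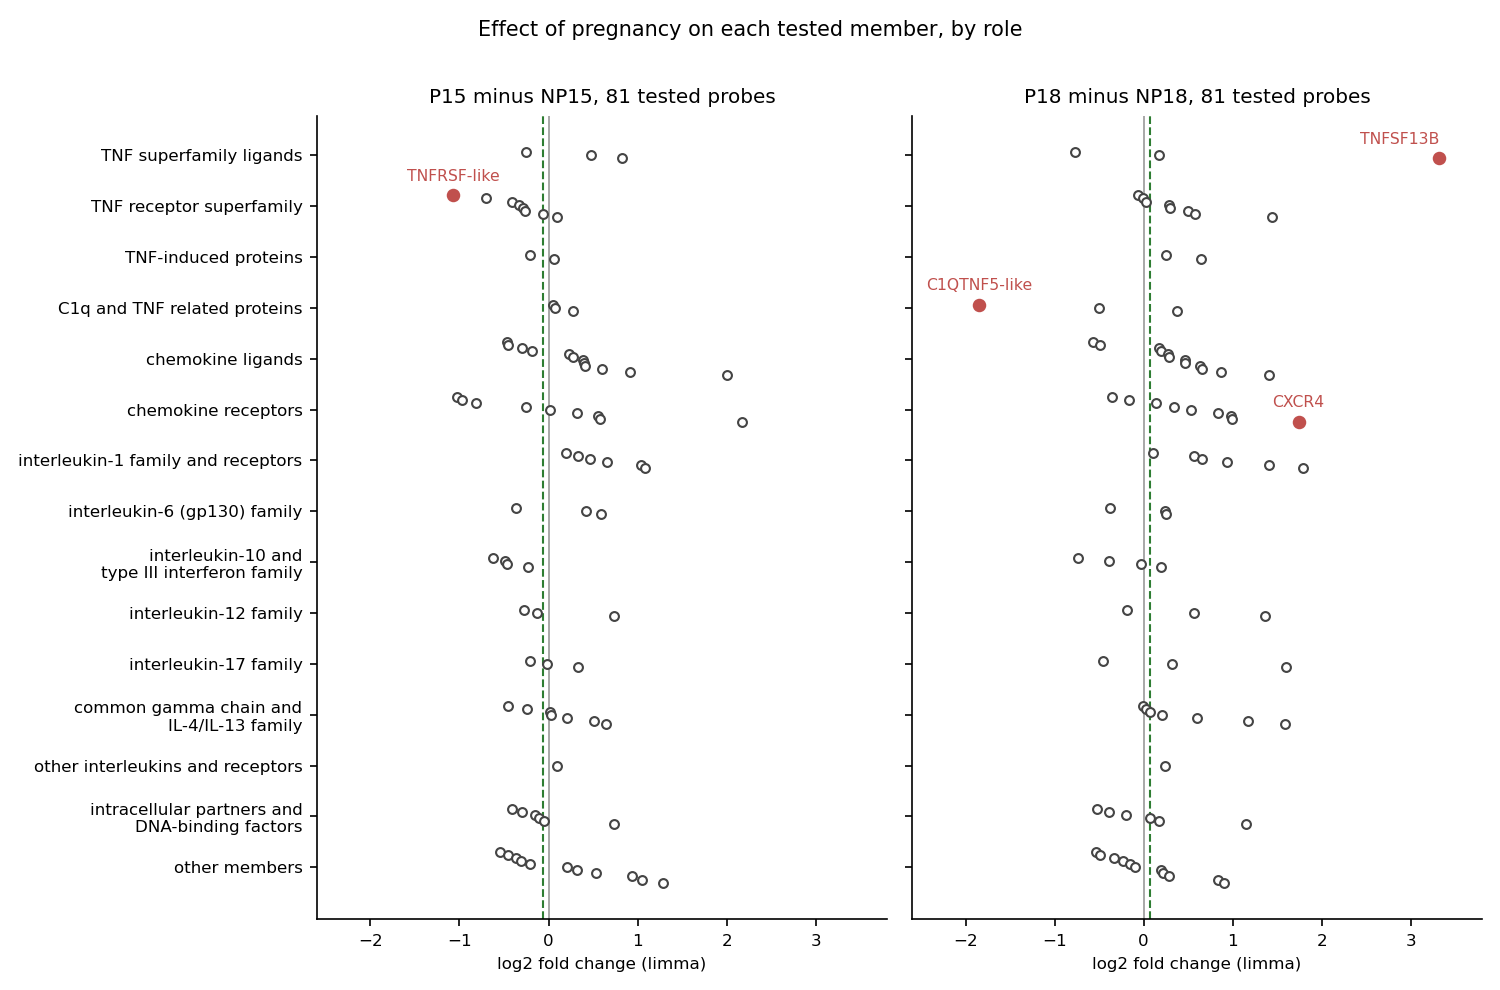
Log2 fold change of each of the 81 tested members between pregnant and non-pregnant cows on day 15 (left) and day 18 (right), by role. Red circles were called by limma and open circles were not, the gray line is 0 and the dashed green line is the median over all tested probes (-0.06 and 0.07). On day 15 only the TNFRSF-like tag was called, and on day 18 TNFSF13B, CXCR4 and the C1QTNF5-like tag.

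The chemokines CXCL8, CXCL5, CXCL2 and GRO1 act through the same kind of receptors on neutrophils, and their genes follow one another in the RefSeq order of the bovine genome (ARS-UCD2.0) with 1, 2 and 1 other protein-coding genes between them. In NP18, replicate 4 was the highest array for each of the 4, with 0.849 for CXCL8, 3.82 for CXCL5, 2.45 for CXCL2 and 6.41 for GRO1. The other 3 arrays of NP18 gave 0.0511 to 0.215, 0.241 to 0.453, 0.0843 to 0.263 and 1.3 to 4.23, respectively. Limma called none of the 4 in any of the 5 comparisons. On day 18 the changes were 0.46 (SE 0.95) for CXCL5, 0.28 (SE 0.89) for CXCL2 and 0.65 (SE 0.51) for GRO1.

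**Figure D2:**
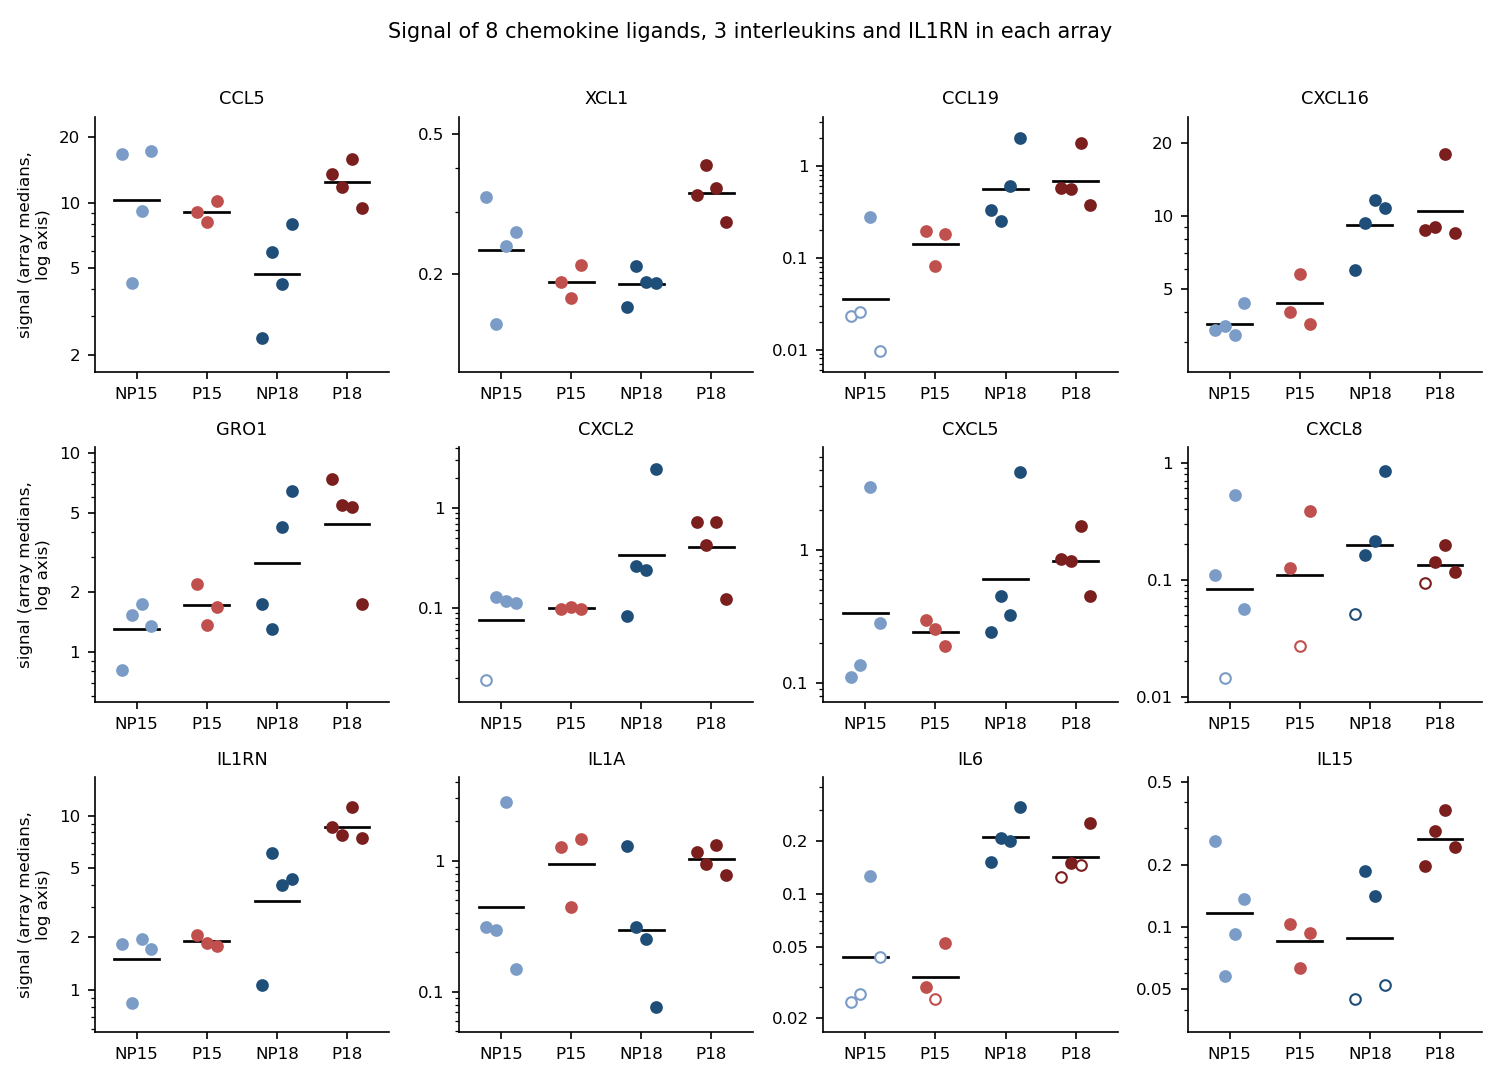
Signal of 8 chemokine ligands, 3 interleukins and the antagonist IL1RN in each of the 15 arrays, in array medians on a log axis, by group. Filled circles were well above background, open circles were not, and bars are geometric means. CCL5, XCL1, IL1RN and IL15 were higher in all 4 arrays of P18 than in all 4 of NP18, while CXCL2, CXCL5 and CXCL8 each had 1 array of NP18 far above the other 3.

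On day 15, 1 of the 81 tested members was called between P15 and NP15, which is 1.23%, against 0.798% of all tested probes. This was the TNFRSF-like tag, and it was lower in pregnancy. At an unadjusted p below 0.05 there were 7 members (8.64%, against 14.9% of all tested probes), and the groups did not overlap for 6 (7.41%, against 15.6%). The median change was 0.03 over the tested members and -0.06 over all tested probes.

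The TNFRSF-like tag gave 0.48, 0.67, 0.438 and 0.422 array medians in NP15. In P15 it gave 0.198, 0.251 and 0.26. On day 18 it was 0.174, 0.2, 0.209 and 0.211 in NP18 and 0.269, 0.273, 0.23 and 0.206 in P18. NP15 stood above the other 3 groups, which overlapped with one another. The log2 fold change between P15 and NP15 was -1.07 (SE 0.21, limma adjusted p = 0.0359, exact permutation p = 0.0286). Before division by the array median, its brightness was 138 to 248 in NP15, 136 to 162 in P15, 140 to 176 in NP18 and 94 to 153 in P18, so the unscaled values of these groups overlapped, while the array medians of NP15 (315 to 409) were below those of P15 (545 to 686). The call was lost with the 75th percentile of the array in place of its median, and when any 1 of 9 of the 15 arrays was left out, among them all 3 of P15. Blocking on scan day left no call among the members and gave this tag an adjusted p of 0.546. These 9 were NP15 replicates 1 and 2, NP18 replicates 2 and 3, P18 replicates 1 and 2, and the whole of P15. Without NP15 replicate 3 there were 2 calls.

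CCR8 lay next to it, with 0.52, 0.727, 0.651 and 0.796 in NP15 and 0.286, 0.399 and 0.341 in P15. The groups did not overlap, and the change of -0.97 (SE 0.22) had an adjusted p of 0.0514 in limma. Its unscaled brightness was 205 to 302 in NP15 and 196 to 217 in P15. IL1B gave 0.398, 0.2 and 0.314 in P15 and 0.234, 0.101, 0.2 and 0.0873 in NP15, which overlapped (1.04, SE 0.37, limma adjusted p = 0.213). TNFRSF9 gave 0.0521, 0.0268 and 0.00981 in P15 and 0.026, 0.0283, 0.0779 and 0.0398 in NP15, and in each group 1 array was well above background. ACKR4, a scavenger receptor that removes CCL19 and CCL21, was well above background in all 3 arrays of P15 and in none of NP15. It gave 0.0374, 0.356 and 0.0791 in P15 and 0.0129 to 0.0459 in NP15, so that the groups overlapped. With each NP15 array raised to at least its lowest signal well above background, the geometric mean of P15 was 2.70-fold that of NP15. The arithmetic means as measured were 0.157 and 0.0256. Limma gave an adjusted p of 0.362, so a rise is not shown.

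The other large changes of day 15 were those of dim or variable members, and none was called. They were CCL19 (adjusted p = 0.344), the secreted chemokine-like protein FAM19A2 (1.29, SE 0.70), IL1A (1.08, SE 0.92) and the adaptor TIRAP (1.05, SE 0.62) above 0. With normexp background correction FAM19A2 (-0.39) and TIRAP (-0.27) were below 0. Below 0 they were CXCR3 (-1.03, SE 0.41), the atypical chemokine receptor ACKR1 (-0.82, SE 0.53) and TNFRSF9 (-0.70, SE 0.52). All adjusted p-values of limma for them were 0.248 or higher. The 4 tested members of the interleukin-10 and type III interferon family all had changes below 0, from -0.62 to -0.23, and none was called. Over all 13164 tested probes, 5936 had a change above 0 on day 15.

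For 1 member pregnancy had unlike effects on the days, again the TNFRSF-like tag (1.23% of the tested members, against 2.72% of all tested probes). The difference was 1.37 (SE 0.29, limma adjusted p = 0.0259), since it was lower in P15 than in NP15 but changed by 0.30 (SE 0.20) between P18 and NP18. Without 1 array the number of called members was 0 to 2, and the tag lost its call without P15 replicate 1, P15 replicate 2 or P18 replicate 2. It was also lost with the 75th percentile, the authors' log2 table and scan day as a block (adjusted p = 0.618). TNFSF13B, CXCR4 and the C1QTNF5-like tag, called on day 18 alone, are not shown to differ between the days, with adjusted p-values of 0.0556, 0.169 and 0.0599 in limma.

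Between the days, more members changed. From NP15 to NP18, 10 of the 81 tested members were called (12.3%, against 7.16% of all tested probes), 7 higher (8.64%, against 2.89%) and 3 lower (3.70%, against 4.26%) on day 18. From P15 to P18, 12 were called (14.8%, against 11.9%), 11 higher (13.6%, against 7.58%) and 1 lower (1.23%, against 4.31%). With the 75th percentile of the array as the scale, the counts were 9 (5 higher) and 9 (7 higher), while the share of higher calls among all probes went from 40.4% to 25.6% and from 63.7% to 31.2%. The median change over all tested probes then moved from 0.02 to -0.10 and from 0.12 to -0.18. Members called in both were IL13RA1 (probe ABR1853), CXCL16, CASP1 and IL6. Without P15 replicate 1 or P15 replicate 3 the count from P15 to P18 was 7. Blocking on scan day removed every call of the members in both comparisons, and day and scan day cannot be told apart. On the arrays of NP15 and NP18 alone limma called CCR8 and the TNFRSF-like tag and no other member. With the 75th percentile, CASP1 and ACKR4 lost their calls in the cycle, and IL15, IL13RA1, TNFSF5IP1 and CXCL16 theirs in pregnancy. CCL5 was then called in the cycle and IL22RA1 in pregnancy. Some calls rested on single arrays. From P15 to P18, that of IL13RA1 was lost without any 1 array of the 2 groups, that of IL15 without any of these or NP15 replicate 3, that of CXCL16 without P15 replicate 1 or 3, and that of TNFSF5IP1 without any array of P15 or without P18 replicate 2 or 3. That of the C1QTNF5-like tag was lost without any array of P15, P18 replicates 2 to 4, NP15 replicate 2 or NP18 replicates 2 or 3. From NP15 to NP18, that of CASP1 was lost without NP15 replicate 2 or NP18 replicates 2 or 4.

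CCL19, a chemokine that guides T cells and dendritic cells into lymphoid tissue through CCR7, had the largest change in the cycle. It gave 0.023, 0.0253, 0.278 and 0.00966 array medians in NP15, of which replicate 3 alone was well above background. In NP18 it gave 0.328, 0.253, 0.603 and 2, all above background (log2 fold change 3.99, SE 0.88, limma adjusted p = 0.0129, and 1.67 with normexp background correction). In P15 it was 0.196, 0.0805 and 0.179 and in P18 0.578, 0.558, 1.76 and 0.37, which did not overlap either, but limma did not call that change (2.26, adjusted p = 0.115). CCL21, the neighboring gene in the RefSeq order and the other ligand of CCR7, was above background in 1 array, and CCR7 itself in 1. ACKR4 was well above background in 3 arrays of NP18 and none of NP15. It gave 0.0166, 0.897, 0.365 and 0.465 in NP18, and replicate 1 lay within the range of NP15 (0.0129 to 0.0459). With NP15 raised to its background limit in the same way, the geometric mean of NP18 was 5.95-fold that of NP15. The arithmetic means as measured were 0.436 and 0.0256 (limma adjusted p = 0.0472). With 1 array left out, the call was kept only without P15 replicate 2 or NP18 replicate 1.

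CXCL16, a membrane-bound chemokine and scavenger receptor of epithelial cells and macrophages, rose in both comparisons. It gave 3.36, 3.5, 3.2 and 4.37 array medians in NP15 and 5.98, 9.32, 11.6 and 10.8 in NP18 (log2 fold change 1.35, SE 0.28, limma adjusted p = 0.0103). In pregnancy it gave 3.98, 5.76 and 3.57 in P15 and 8.73, 8.97, 18.1 and 8.52 in P18 (1.27, SE 0.31, limma adjusted p = 0.0145). IL13RA1, read by probe ABR1853, gave 0.919, 0.532, 0.491 and 0.478 in NP15 and 1, 2.07, 1.79 and 1.65 in NP18 (1.44, SE 0.28, limma adjusted p = 0.00782). It gave 1.19, 0.621 and 1.02 in P15 and 1.76, 2.13, 1.65 and 1.8 in P18 (1.00, SE 0.31, limma adjusted p = 0.0389). Its other probe was brighter and was called in neither comparison. It gave 12.8 ± 7.06 in NP15 and 12.5 ± 3.64 in NP18 (SD, n = 4 each), a change of 0.16 (SE 0.48). In pregnancy it gave 11.7 ± 4.7 in P15 (n = 3) and 28.7 ± 11.8 in P18 (n = 4).

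CASP1, the protease that cuts the precursors of IL-1 beta and IL-18 into active cytokines, gave 0.78, 0.474, 1.02 and 0.879 in NP15 and 1.61, 1.72, 1.04 and 2.23 in NP18 (1.07, SE 0.28, limma adjusted p = 0.0287). In pregnancy it gave 1.15, 1.17 and 0.966 in P15 and 2.23, 3.49, 3.65 and 2.35 in P18 (1.39, SE 0.31, limma adjusted p = 0.0102). IL6 rose by 2.25 (SE 0.45, limma adjusted p = 0.00822) from NP15 to NP18, where 1 and 4 arrays were well above background, and by 2.24 (SE 0.49, limma adjusted p = 0.00945) from P15 to P18, where only 2 arrays of each group were. With normexp background correction these changes were 0.58, which was not called, and 1.26.

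The members called in the cycle alone also included 3 that were lower on day 18. CCR8 fell from NP15 to 0.215, 0.228, 0.229 and 0.347 in NP18, below all 4 arrays of NP15 (log2 fold change -1.41, SE 0.21, limma adjusted p = 0.00119). The TNFRSF-like tag changed by -1.32 (SE 0.20, limma adjusted p = 0.00142). As on day 15, the unscaled brightness of both overlapped between the groups, with 173 to 281 for CCR8 and 140 to 176 for the tag in NP18. IL22RA1, the epithelial receptor of IL-22, changed by -1.50 (SE 0.33, limma adjusted p = 0.0122), from 4 arrays well above background to 1, and was not called with normexp background correction (-0.87). In pregnancy IL22RA1 was also lower on day 18, with 0.124 to 0.153 in P15 and 0.0367 to 0.107 in P18. That fall was not called in the main setting, but was with the 75th percentile, quantile normalization or the authors' log2 table. Of the arrays of P18, 1 was well above background for it.

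In pregnancy, TNFSF13B rose by 3.36 (SE 0.54, limma adjusted p = 0.00214) from P15 to P18. IL1RN gave 2.06, 1.86 and 1.79 array medians in P15, and rose by 2.19 (SE 0.47, limma adjusted p = 0.00895). TNFAIP6 gave 1.34, 2.92 and 1.83 in P15 and 6.97, 8.46, 12.6 and 4.06 in P18 (1.94, SE 0.40, limma adjusted p = 0.00736, exact permutation p = 0.0571). In the cycle it went from 1.86, 2.09, 1.84 and 3.49 in NP15 to 4.94, 3.86, 3.48 and 7.68 in NP18, and was not called. IL15 rose by 1.65 (SE 0.53, limma adjusted p = 0.0466) and TNFSF5IP1, named for its induction by the CD40 ligand, by 1.13 (SE 0.32, limma adjusted p = 0.0274). The C1QTNF5-like tag fell by 1.18 on the log2 scale (SE 0.37, limma adjusted p = 0.0447), and no other member was called lower.

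TNFRSF9 gave 0.124, 0.18, 0.197 and 0.17 in P18, of which 3 arrays were well above background, against 1 of 3 in P15 (2.79, SE 0.52, limma adjusted p = 0.0045, and 1.25 with normexp background correction). In NP18 it gave 0.054, 0.0863, 0.0324 and 0.091. CXCR3 also passed the call (1.98, SE 0.41, limma adjusted p = 0.00736), although none of the arrays of P18 was well above background and 1 of P15 was. Since the lowest signal above background was higher on day 18, this does not measure a rise of CXCR3. Where a call also asked that no array of the higher group be near background, a condition chosen after seeing the data, 9 members remained in each comparison, and CXCR3, TNFRSF9 and IL6 left the comparison of P18 with P15 and ACKR4 that of NP18 with NP15.

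Genes that carry the signals of these receptors inside the cell, from a list of 36 genes, were represented by 19 tested probes, mostly of the NF-kB pathway and of SOCS proteins. JAK1, JAK2, JAK3, TYK2, RELA, RELB, REL and NFKB2 were among the genes of the list with no probe named for them. None of the 19 was called between pregnant and non-pregnant cows on either day, against 0.798% and 5.75% of all tested probes, with median changes of -0.08 on day 15 and 0.03 on day 18. From NP15 to NP18, NFKBIZ, an atypical regulator of NF-kB, rose by 1.43 (limma adjusted p = 0.0225) and SOCS4, a suppressor of cytokine signaling, by 1.13 (limma adjusted p = 0.0364). From P15 to P18, NFKBIZ rose by 1.37 (limma adjusted p = 0.0288), SOCS4 by 1.49 (limma adjusted p = 0.0123) and CISH, another suppressor of the same family, by 1.43 (limma adjusted p = 0.0127). The 2 and 3 calls stand against 7.16% and 11.9% of all tested probes. No gene of the list was called lower in any of these comparisons.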

How the data were processed

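RNA of caruncular endometrium was labeled with Cy3 and hybridized to custom 60-mer arrays, 1 cow per array. The authors extracted the deposited intensity values with Agilent Feature Extraction 9.5, which subtracted a background, detrended each array and gave spots at or below background a surrogate value, with nothing scaled between arrays. The deposited flag columns (other) mark spots well above background, saturated or outlying. The authors also deposited a log2 table of the same arrays, scaled close to the 75th percentile, which was used as an alternative. As in the study's methods, signals were set relative to the array median, and their log2 was used. Outlier spots were left out. The test was limma 3.58.1 (R 4.3.3) with 1 mean per group over 15 arrays, on probes that 3 or more arrays read well above background. A call needed a p below 0.05 after Benjamini-Hochberg adjustment and a difference over 2-fold. Single comparisons also had an exact two-sided permutation test. Alternatives were other scalings (75th percentile, quantile), normexp background correction, the authors' table, other filters, array weights, slide, scan day or replicate number as a block, the methods' t-test and each array left out, and a stricter background rule chosen after seeing the data.

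The 5 comparisons were P15 minus NP15, P18 minus NP18, their difference, NP18 minus NP15 and P18 minus P15. Named were members called in any of them, the 5 highest and 5 lowest changes of pregnancy on each day, and a list from the study's text. Values in every array are given for members called on day 18 and the 3 of smallest adjusted p elsewhere, and for further members chosen after their values were seen. CCL5, XCL1, IL1RAP, IRAK2, CXCR5, CCRL2, C1QTNF7, C1QTNF9, CXCL2, CXCL5 and GRO1 were named after their values were seen. The values of 2 members, which stay in all counts of members, are not reported here. The members and lists were chosen with earlier results of these data known. Of the members, 74 were named through RefSeq (ARS-UCD2.0) and the others from the array annotation. Replicate numbers of the labels did not pair the cows, and the cows of a group are separate animals as far as the labels tell. On simulated data with 13130 probes, the procedure recovered 58.0% of changes of 1.5 (log2) and 84.0% of changes of 2.5 for day 15, and 57.0% and 91.5% for day 18. The simulated noise was normal and independent between arrays, with no effect of slide or scan day and no background limit. These shares therefore do not give the sensitivity for the real arrays or for dim members. Figures were made with matplotlib 3.10.9 in Python 3.11.15.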

Additional observations from a re-analysis of the deposited data

Results flagged for a closer look

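Among 30 named members and 83 groups of 4 arrays, 6 groups had 1 array far from the other 3, where chance gives about 1 in 20. The value is the gap of that array to the nearest other, as a share of the range of the group on the log2 scale. In NP18, CCR8 was highest in replicate 4 (0.347 against 0.215 to 0.229 array medians, share 0.868), IL22RA1 was highest in replicate 3 (0.0929 against 0.0484 to 0.0491, share 0.978) and TNFSF13 was lowest in replicate 4 (0.261 against 0.334 to 0.335, share 0.984). In NP15, IL13RA1 (probe ABR1853) was highest in replicate 1 (0.919 against 0.478 to 0.532, share 0.838). In P18, ACKR4 was lowest in replicate 4 (0.229 against 0.528 to 0.597, share 0.873) and CXCL16 was highest in replicate 3 (18.1 against 8.52 to 8.97, share 0.932). Between the days the change with pregnancy of the TNFRSF-like (BE668836) tag differed by 1.37 on the log2 scale (limma adjusted p = 0.0259).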

How the results depend on the processing

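The main counts of called members were 1 for P15 minus NP15, 3 for P18 minus NP18, 1 for the difference between the days, 10 for NP18 minus NP15 and 12 for P18 minus P15, and none of the 27 called changes of named members turned its direction under any alternative or without any array. Of 128 changes that were not called, 46 changed sign under at least 1 setting (99 of 3660 values), and none of these was then called. For P15 minus NP15 the count was 0 with the 75th percentile, normexp, the authors' log2 table, the 2 groups alone, slide, scan day or replicate number as a block and the methods' t-test after Benjamini-Hochberg adjustment, 2 with that t-test unadjusted and 7 with array weights. For P18 minus NP18 it was 7 with normexp (CCL5, IL15, IL17RE and IL1RN added), 7 with array weights, 10 with the unadjusted t-test, 2 with the adjusted t-test (IRAK2 and TNFSF13B, so that CXCR4 and the C1QTNF5-like tag lost their calls) and 0 with scan day as a block. IRAK2 was not well above background in any array of day 18, so its call does not measure a rise. For the difference between the days it was 0 with the 75th percentile, the authors' log2 table or scan day, 2 with the replicate block, 3 with quantile normalization or probes above background in all 15 arrays, 6 with array weights and 11 with normexp. For NP18 minus NP15 it was 6 with probes above background in all 15 arrays, 2 with the 2 groups alone or the adjusted t-test and 0 with scan day. For P18 minus P15 it was 27 without the filter, 21 with array weights, 20 with the 2 groups alone, 20 with the unadjusted t-test and 0 with scan day. Without 1 array the counts ran from 0 to 2, 3 to 7, 0 to 2, 8 to 14 and 7 to 14. Replicate numbers did not pair the cows (correlations of -0.125 to 0.304 between equally numbered pregnant and non-pregnant cows of a day), and with the replicate block the counts were 0, 3, 2, 9 and 8. The cause of these shifts was not tested. Each scan day held arrays of 1 group, so that scan day cannot be separated from group, and dim members were closer to background on day 18, where fewer could be measured.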
